A study of Mus musculus with 17 samples.

Results

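The 9 genes described here, Lyz1, Lyz2, Lcp1, Cd68, Cd14, Csf1, Csf1r, Naip5 and Naip2, are genes usually associated with macrophages and other myeloid cells, and they were followed in a mouse mammary epithelial line. They were chosen by symbol, because they are usual for macrophages and because several of them had differed between induced and repressed cells, so the induction values below describe the genes and do not test them. All 9 were measured, each by 1 probe set, among 19938 genes. RNA came from 3134 cells in 4 stable lines. The control line, 3134Tet, carried the tetracycline-regulated transactivator alone, and the others added a Flag-tagged dominant-negative (dn) form of a chromatin remodeler, Brg1, Chd4 or Snf2h. Stocks of every line grew with tetracycline at 5 µg/ml, which represses both the transactivator and the dominant-negative protein, and cells were then plated for 48 h with tetracycline (repressed) or without it (induced) in medium with charcoal-stripped serum. Arrays of the control line numbered 2 repressed and 3 induced, and those of the dominant-negative lines 2 of either kind per line. Every induced dominant-negative culture therefore also expressed the transactivator. The labels do not say whether a line is 1 clone or replicates are separate cultures, so p-values measure the spread between these arrays, which may be technical.

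Macrophages take up and digest microbes and debris. Lysozyme cleaves bacterial cell walls, L-plastin (Lcp1) bundles actin at the edge of moving and engulfing leukocytes, and CD68 is a heavily glycosylated protein of late endosomes and lysosomes. CD14 hands lipopolysaccharide to Toll-like receptor 4, and NAIP proteins bind bacterial proteins in the cytosol and start the NLRC4 inflammasome, NAIP5 for flagellin and NAIP2 for the rod protein of secretion systems. CSF-1 (Csf1) is the growth factor on which most macrophages depend, made largely by epithelial and stromal cells, and CSF1R is its receptor on the macrophage. In the mammary gland CSF-1 from the epithelium and macrophages around the ducts take part in branching. Some of these genes are also active outside the myeloid lineage, L-plastin in many epithelial tumours and CD68 in other cells rich in lysosomes.

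Values are log2 signals as deposited, so a difference of 1 is a doubling, and the level of one probe set is not compared with that of another. A level is called dim when it lies under 4.77, which bounds the lowest 30% of genes by mean over all arrays. No background readings were used here, so a rise from a dim level is a lower bound if the dim reading is background. Fits of the dominant-negative lines used their 12 arrays, and ± values are SD with n = 2 unless stated.

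In the control line 3 of the 5 arrays lay nearest to an array of the other label, and this touches 4 of the genes most. Across genes the library labelled control repressed replicate 1 was closest to that labelled control induced replicate 2 (r = 0.995), and the library labelled control induced replicate 1 to that labelled control repressed replicate 2 (r = 0.994). Control induced replicates 2 and 3 were closest to each other (r = 0.997). Whether the labels of the libraries numbered 1 were exchanged was not tested, and the labels are used as given. Lcp1 read 7.05 and 4.79 in the libraries labelled control repressed, and 4.74, 7.41 and 7.39 in those labelled control induced. Naip5 read 6.60 and 4.30, then 4.96, 6.95 and 6.86. Naip2 read 7.99 and 6.17, then 6.31, 8.05 and 7.90. Lyz2 read 6.0 and 4.54, then 4.88, 5.95 and 6.06. In each of these genes replicate 1 of the repressed label was high and replicate 1 of the induced label was low. Fits were therefore made without the control line, and the control line is given apart with and without the 2 libraries that carry the number 1.

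Lyz1 and Lyz2 are neighbours on chromosome 10, and Naip2, Naip5 and Naip6 follow each other on chromosome 13. Such copies can share array signal, so a value of one copy is uncertain to the extent that its probes see the other; the probe sequences were not used here. Because the members of each pair differed in the same direction on every dominant-negative induction below, the 250 bases upstream of their start sites are shown from RefSeq (GRCm38.p6, minus strand, 5′ to 3′), with capitals for the longest run of bases that is identical in both members of the pair.
Lyz1, chr10:117292869-117293118: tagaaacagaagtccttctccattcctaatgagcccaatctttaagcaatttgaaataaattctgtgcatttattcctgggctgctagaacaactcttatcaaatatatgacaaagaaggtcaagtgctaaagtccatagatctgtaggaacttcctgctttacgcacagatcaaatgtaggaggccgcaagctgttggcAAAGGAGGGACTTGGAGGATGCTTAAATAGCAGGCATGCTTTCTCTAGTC
Lyz2, chr10:117282273-117282522: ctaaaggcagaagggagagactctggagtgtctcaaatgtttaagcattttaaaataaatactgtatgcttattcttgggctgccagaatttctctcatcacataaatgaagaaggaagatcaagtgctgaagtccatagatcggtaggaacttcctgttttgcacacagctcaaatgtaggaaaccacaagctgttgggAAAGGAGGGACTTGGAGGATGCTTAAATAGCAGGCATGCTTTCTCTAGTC
Naip5, chr13:100247337-100247586: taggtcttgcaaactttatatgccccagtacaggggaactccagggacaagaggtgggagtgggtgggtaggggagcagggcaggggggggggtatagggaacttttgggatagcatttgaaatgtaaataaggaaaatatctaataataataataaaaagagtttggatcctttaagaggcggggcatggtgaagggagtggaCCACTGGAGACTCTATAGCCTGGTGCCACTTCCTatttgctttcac
Naip2, chr13:100202123-100202372: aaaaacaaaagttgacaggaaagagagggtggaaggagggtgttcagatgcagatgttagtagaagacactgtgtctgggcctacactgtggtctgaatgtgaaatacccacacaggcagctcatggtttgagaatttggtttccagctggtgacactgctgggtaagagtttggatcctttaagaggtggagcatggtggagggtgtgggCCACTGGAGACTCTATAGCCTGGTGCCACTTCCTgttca
The Lyz1 and Lyz2 stretches had 79.4% identity over their global alignment, and the last 50 bases before the start site were the same in both. The Naip5 and Naip2 stretches had 56.7% identity, with a shared run of 34 bases that ended 13 and 6 bases from the start. Pairs of unrelated members gave between 38.2% and 49.3%.

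Motifs of myeloid and stress-responsive factors were counted on both strands of the same 250 bases. They were PU.1 (GAGGAA), AP-1 (TGANTCA), C/EBP (TTGCNNAA) and the E-box CACGTG, none of which contains another. Of 32851 mouse promoters, 23.3% held the PU.1 letters, 6.75% the AP-1 letters, 9.56% the C/EBP letters and 6.02% the E-box. Promoters were found for 7 of the 9 genes. Cd68 held 1 PU.1, 2 AP-1 and 1 C/EBP match, shown here in capitals because it was the member with the most matches.
Cd68, chr11:69666171-69666420, minus strand: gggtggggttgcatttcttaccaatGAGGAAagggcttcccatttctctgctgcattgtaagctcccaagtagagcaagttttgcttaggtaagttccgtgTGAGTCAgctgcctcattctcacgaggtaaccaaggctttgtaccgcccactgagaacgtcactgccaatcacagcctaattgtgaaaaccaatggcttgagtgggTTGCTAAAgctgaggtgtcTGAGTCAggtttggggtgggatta
Lyz1 held 1 C/EBP match (TTAAGCAA, on the other strand), 209 bases upstream. The windows of Lyz2, Csf1, Naip5, Naip2 and both start sites of Lcp1 held none of these letters. A match is a description of letters and says nothing about whether a factor binds there.

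Induction is described first for the whole group. In the fit of 12 arrays 5 of the 9 genes were higher and 2 lower past an adjusted p of 0.05 in dnBrg1, where 14.2% of all genes passed (8.01% higher and 6.22% lower). In dnChd4 6 were higher and 0 lower, where 18% of all genes passed (11.2% higher and 6.82% lower). In dnSnf2h 5 were higher and 1 lower, where 17.5% passed (9.2% higher and 8.34% lower). The genes were chosen on these contrasts, so these counts carry no weight of their own. With all 17 arrays, where each gene's spread includes the control groups, 0, 1 and 0 of the 9 genes passed in dnBrg1, dnChd4 and dnSnf2h; the 1 was Cd68. Lyz1, Lyz2, Lcp1, Naip5 and Naip2 were on the higher side in each of the 3 lines and Cd14 on the lower side, with sizes that varied by line. Cd68, Csf1 and Csf1r did not keep one direction over the lines. The median difference over the 9 genes was 0.58 in dnBrg1, 0.90 in dnChd4 and 0.39 in dnSnf2h, beside medians over all genes of -0.035, -0.027 and -0.009.

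**Figure D1:**
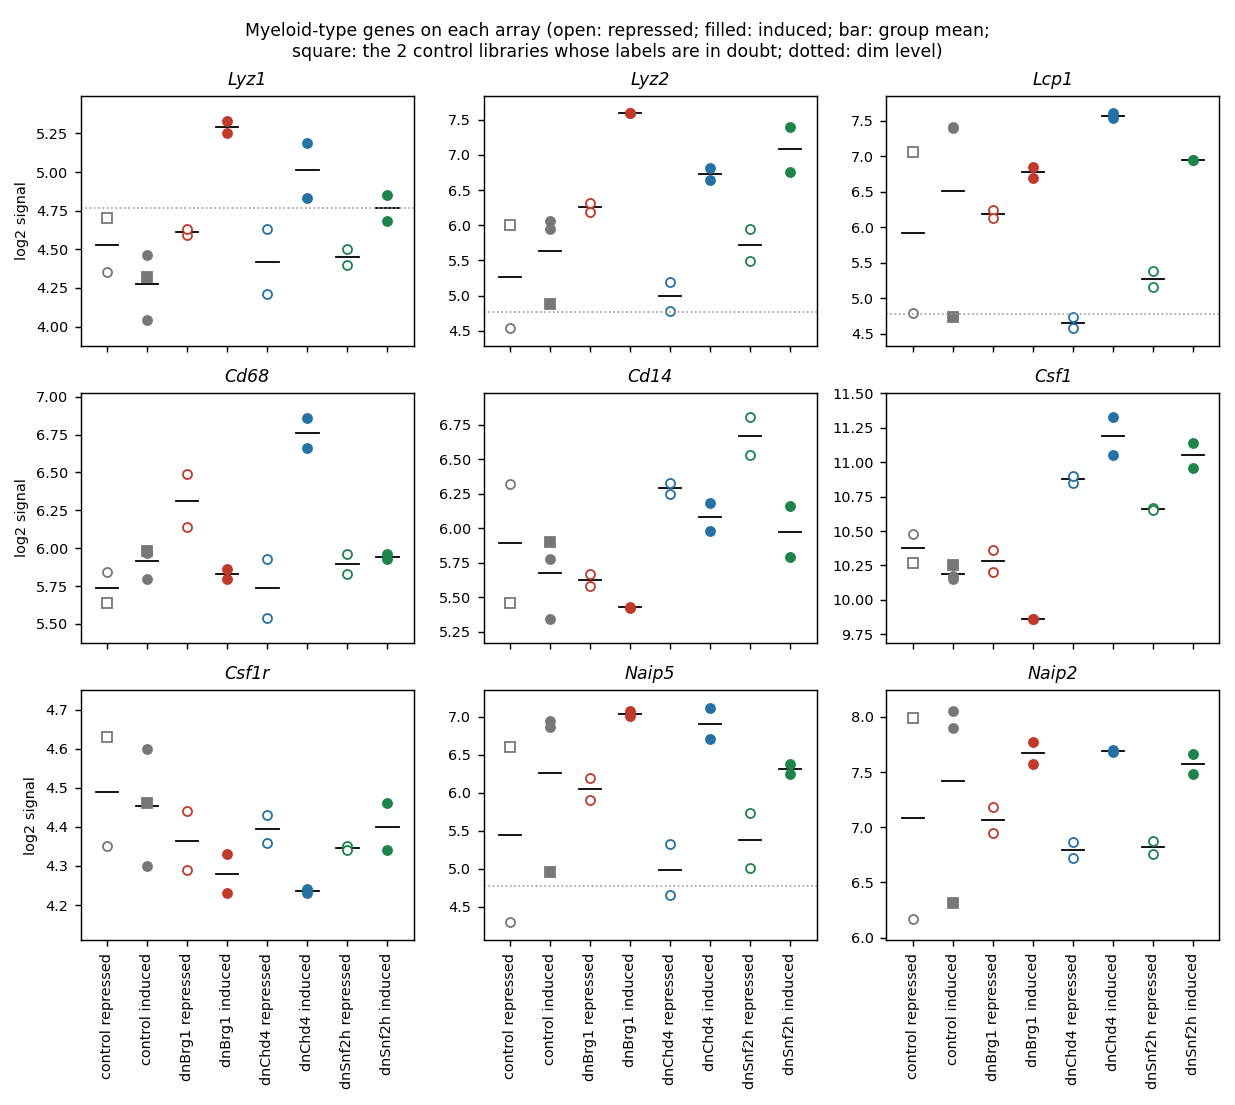
Log2 signal of the 9 genes on each of the 17 arrays (y axis, a separate scale for each gene) by group (x axis); open symbols are repressed and filled symbols induced arrays, bars are group means, squares are the 2 control libraries that carry replicate number 1 and the dotted line is the dim level of 4.77. Lyz2, Lcp1, Naip5 and Naip2 lie higher in every induced dominant-negative group than in its repressed group, while in the control groups the squares of these 4 genes lie with the arrays of the other label.

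Among the effectors, Lyz2, the lysozyme gene of macrophages, read 6.19 and 6.32 in repressed dnBrg1 and 7.59 and 7.59 in induced dnBrg1. In dnChd4 it read 4.78 and 5.20 repressed and 6.82 and 6.64 induced. The dnSnf2h arrays read 5.49 and 5.95 repressed and 6.76 and 7.40 induced. All induced arrays lay above all repressed arrays of their line, and the repressed dnChd4 arrays were the lowest of the 3 lines. The differences were 1.34 in dnBrg1, 1.74 in dnChd4 and 1.36 in dnSnf2h (SE 0.190 each), or 2.53-fold, 3.34-fold and 2.56-fold. Ordered by mean, the groups ran from repressed dnChd4 (4.99) through repressed dnSnf2h (5.72) and repressed dnBrg1 (6.25) to induced dnChd4 (6.73), induced dnSnf2h (7.08) and induced dnBrg1 (7.59). Arrays of induced dnChd4 and induced dnSnf2h overlapped, and no other neighbours in that order did.

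Lyz1, the lysozyme gene of the Paneth cells of the gut, was dim in every repressed group. It was also dim in the group labelled control induced (mean 4.27), and its mean in induced dnSnf2h was at the dim level (4.77). It read 4.59 and 4.63 in repressed dnBrg1 against 5.25 and 5.33 induced, and 4.63 and 4.21 in repressed dnChd4 against 4.83 and 5.19 induced. In dnSnf2h it read 4.50 and 4.40 repressed and 4.85 and 4.68 induced. The induced arrays were the higher ones in each line, by 0.68 in dnBrg1, 0.59 in dnChd4 and 0.31 in dnSnf2h (SE 0.139 each). Across the 12 arrays Lyz1 and Lyz2 correlated with r = 0.76. Of the 6 other lysozyme-related genes measured, 0 passed in any of the 3 inductions in limma, with 2, 0 and 1 at an unadjusted p under 0.05.

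Lcp1 gave the widest range of the 9 genes over the dominant-negative groups, 2.91 between the lowest and highest group mean. It read 4.73 and 4.58 in repressed dnChd4, a dim level, and 7.60 and 7.54 in induced dnChd4. The dnSnf2h arrays read 5.16 and 5.38 repressed and 6.95 and 6.95 induced. In dnBrg1 it read 6.24 and 6.13 repressed and 6.69 and 6.85 induced. The line with the lowest repressed level thus had the highest induced level, and the groups of each line did not overlap. The differences were 2.91 in dnChd4 (7.54-fold), 1.68 in dnSnf2h (3.20-fold) and 0.58 in dnBrg1 (1.50-fold), with an SE of 0.104 each. No 2 of the 6 groups overlapped, in the order repressed dnChd4, repressed dnSnf2h, repressed dnBrg1, induced dnBrg1, induced dnSnf2h and induced dnChd4.

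Of 16 other plastins and leukocyte actin regulators, among them the related plastin genes Pls1 and Pls3, 1 passed in dnBrg1 and 0 in dnChd4 and dnSnf2h in limma (3, 1 and 1 at an unadjusted p under 0.05), where 14.2%, 18% and 17.5% of all genes did. The gene that passed was Lsp1, a leukocyte actin-binding protein gene, which fell by 0.42 in dnBrg1 (SE 0.114; limma adjusted p = 0.0211). That call was lost with all 17 arrays (adjusted p = 0.214) and without dnBrg1 repressed replicate 2 or either induced dnBrg1 array.

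Of the cytosolic sensors, Naip5 read 5.32 and 4.66 in repressed dnChd4 and 7.11 and 6.71 in induced dnChd4. In dnBrg1 it read 6.19 and 5.91 repressed and 7.01 and 7.07 induced. In dnSnf2h it read 5.01 and 5.74 repressed and 6.24 and 6.38 induced. Induced arrays were above repressed ones in each line, by 1.92 in dnChd4, 0.99 in dnBrg1 and 0.93 in dnSnf2h (SE 0.221 each). Repressed dnChd4 and repressed dnSnf2h overlapped, as did induced dnChd4 and induced dnBrg1.

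Naip2 differed less. It read 7.18 and 6.95 in repressed dnBrg1 against 7.57 and 7.77 induced, and 6.87 and 6.72 in repressed dnChd4 against 7.68 and 7.70 induced. Repressed dnSnf2h read 6.76 and 6.88 and induced dnSnf2h 7.48 and 7.66. The 3 repressed groups lay below the 3 induced groups without overlap, and the differences were 0.60, 0.90 and 0.75 (SE 0.112 each) in dnBrg1, dnChd4 and dnSnf2h. Naip2 and Naip5 correlated with r = 0.93 across the 12 arrays.

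Naip6, the next copy in the cluster and not one of the 9, rose by 1.18 in dnChd4 (SE 0.189; limma adjusted p = 0.00048) and by 0.72 in dnBrg1 (adjusted p = 0.0180). It read 5.58 and 5.30 in repressed and 6.73 and 6.50 in induced dnChd4. In dnSnf2h it read 5.36 and 6.08 repressed and 6.02 and 6.44 induced, which overlapped (difference 0.51; adjusted p = 0.0807). Both calls were lost with all 17 arrays (adjusted p = 0.429 and 0.629), and the one in dnBrg1 also without any 1 of its 4 arrays. In the libraries labelled control repressed Naip6 read 6.28 and 4.91, against 5.09, 6.71 and 6.50 in those labelled control induced. Whether its rise in dnChd4 or dnBrg1 exceeds that of the control line was not tested. Whether Naip6 reads independently of Naip5 was not tested either.

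Of 17 other inflammasome genes, 1 rose and 3 fell in dnBrg1, 2 rose and 0 fell in dnChd4, and 0 rose and 1 fell in dnSnf2h, where 14.2%, 18% and 17.5% of all genes passed. Casp1, which encodes the caspase that inflammasomes activate, fell by 0.76 in dnBrg1 (SE 0.140; limma adjusted p = 0.00195) and by 0.50 in dnSnf2h (adjusted p = 0.0218). In dnChd4 it changed by 0.27 (adjusted p = 0.228). Casp4, the intracellular lipopolysaccharide sensor gene, rose by 0.48 in dnChd4 (adjusted p = 0.0435). In dnBrg1 the adaptor gene Pycard (-0.35; adjusted p = 0.0269) and the cytokine gene Il18 (-0.49; adjusted p = 0.0323) also fell. With all 17 arrays the calls of Casp1 (adjusted p = 0.0755 and 0.330) and Casp4 (adjusted p = 0.420) were lost, as were those of Pycard and Il18. Casp1 in dnSnf2h was lost too with the 4 arrays of that line alone and without dnSnf2h repressed replicate 2 or induced replicate 1, and Casp4 without dnChd4 repressed replicate 2 or either induced array, with those 4 arrays alone and with the replicate block.

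Cd14, the surface sensor, ran the other way from the NAIP genes. It read 6.53 and 6.81 in repressed dnSnf2h and 5.79 and 6.16 induced. In dnChd4 it read 6.25 and 6.33 repressed and 6.18 and 5.98 induced, and in dnBrg1 5.67 and 5.58 repressed and 5.42 and 5.43 induced. Induced arrays lay under the repressed ones in all 3 lines, with differences of -0.70 in dnSnf2h, -0.21 in dnChd4 and -0.20 in dnBrg1 (SE 0.128 each). Of the 9 genes, Cd14 correlated with Lyz1 at r = -0.69, with Lyz2 at r = -0.62 and with Naip5 at r = -0.60 over the 12 arrays.

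Of 20 measured genes of the Toll-like receptor pathway, 3 rose and 1 fell in dnBrg1, 3 rose and 2 fell in dnChd4, and 1 rose and 1 fell in dnSnf2h, not far from the 14.2%, 18% and 17.5% of all genes that passed. Tlr6 rose by 0.39 in dnBrg1 and 0.40 in dnChd4 (limma adjusted p = 0.0164 and 0.0111). The adaptor gene Myd88 rose by 0.40 in dnBrg1 and 0.32 in dnSnf2h (adjusted p = 0.0161 and 0.0440). Lbp, the lipopolysaccharide-binding protein gene, rose by 0.56 in dnChd4 (SE 0.116; adjusted p = 0.00298). The kinase gene Irak1 fell in all 3, by 0.34, 0.31 and 0.35 (adjusted p = 0.0285, 0.0348 and 0.0218). Each of these calls was lost with all 17 arrays (adjusted p between 0.304 and 0.563) and without at least 1 array of its own line.

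Cd68 went opposite ways in 2 lines. It read 5.93 and 5.54 in repressed dnChd4 and 6.86 and 6.66 induced, and 6.49 and 6.14 in repressed dnBrg1 and 5.86 and 5.80 induced. In dnSnf2h it read 5.96 and 5.83 repressed and 5.96 and 5.93 induced. The groups did not overlap in dnChd4 or dnBrg1 and did in dnSnf2h. The differences were 1.03 in dnChd4 (2.04-fold), -0.48 in dnBrg1 and 0.05 in dnSnf2h (SE 0.136 each).

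Some of the genes that encode the neighbours of CD68 in the lysosome rose. Of 17 LAMP family and cathepsin genes, 8 rose and 0 fell in dnBrg1, 8 rose and 0 fell in dnChd4, and 5 rose and 0 fell in dnSnf2h. The medians were 0.30, 0.29 and 0.19, beside -0.035, -0.027 and -0.009 over all genes. Of all genes 8.01%, 11.2% and 9.2% rose in these lines. Ctso, a cysteine cathepsin gene, rose by 1.03 in dnBrg1, 1.45 in dnChd4 and 1.07 in dnSnf2h (SE 0.112 each; limma adjusted p = 3.29e-05, 9.62e-07 and 1.94e-05). Ctsh, another, rose by 0.87, 0.68 and 0.55 (adjusted p = 0.000248, 0.000969 and 0.00482), and Lamp2, a major lysosomal membrane protein gene, by 0.33, 0.56 and 0.46 (adjusted p = 0.0315, 0.000839 and 0.00332). Lamp1 rose in all 3 as well (0.49, 0.35 and 0.32; adjusted p = 0.00161, 0.0108 and 0.0174). Ctss, the cathepsin gene most typical of antigen-presenting cells, gave 0.02, -0.01 and -0.06 and did not pass, nor did Lamp3, Lamp5, Cd63, Ctsc, Ctsf, Ctsk or Ctsw in any line. A lysosome list had been seen to move in earlier work on these data, so this list is no independent evidence. With all 17 arrays 0 of the 17 genes passed in any line. In the libraries labelled control repressed Ctso read 8.21 and 5.72, against 5.54, 8.26 and 8.18 in those labelled control induced. In the same order Ctsh read 7.86 and 6.74 against 6.76, 8.08 and 8.05. Lamp2 read 10.49 and 9.89 against 9.77, 10.54 and 10.60. Whether the rises in the dominant-negative lines exceed that of the control line was not tested. With the 4 arrays of dnSnf2h alone 1 gene rose, and the calls of Ctsh and Lamp2 in that line were lost. The Lamp2 call in dnBrg1 was lost without repressed replicate 2 or either induced dnBrg1 array. In dnChd4 4 rose without repressed replicate 2 or induced replicate 1 and 5 without either other array, and in dnBrg1 5 rose without repressed replicate 2 or induced replicate 1.

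Csf1, the ligand, differed one way in dnBrg1 and the other way in dnChd4 and dnSnf2h, while its receptor stayed dim. It read 10.36 and 10.20 in repressed dnBrg1 and 9.86 and 9.86 induced. It read 10.85 and 10.90 in repressed dnChd4 and 11.05 and 11.33 induced, and 10.67 and 10.65 in repressed dnSnf2h and 10.96 and 11.14 induced. Induced arrays were the lower ones in dnBrg1 (-0.42) and the higher ones in dnChd4 (0.31) and dnSnf2h (0.39; SE 0.109 each). Csf1r read between 4.23 and 4.63 on all 17 arrays, under the dim level. Its group means differed by at most 0.16 over the dominant-negative lines, and its induction differences were -0.08, -0.15 and 0.06 (SE 0.0945 each), with overlap in dnBrg1 and dnSnf2h and the induced arrays lower in dnChd4.

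Of 11 other ligands and receptors of this kind, 0 passed in dnBrg1 and dnChd4 (2 and 0 at an unadjusted p under 0.05 in limma) and 1 in dnSnf2h. That gene was Il34, the second ligand of CSF1R, which fell by 0.45 (SE 0.100; limma adjusted p = 0.00536). The Il34 call was lost with all 17 arrays (adjusted p = 0.317), with the 4 arrays of that line alone and without dnSnf2h induced replicate 1.

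**Figure D2:**
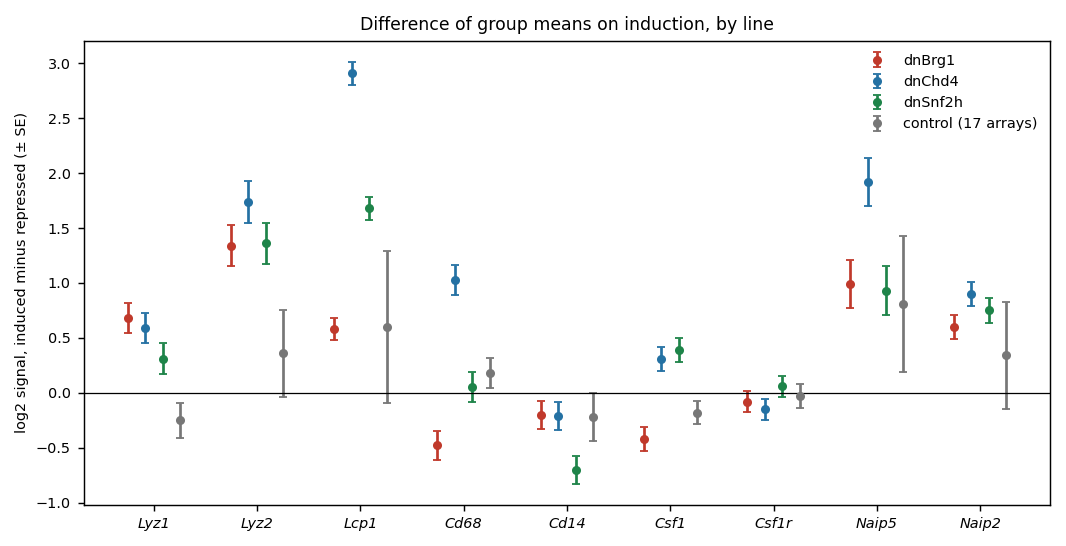
Difference of group means (induced minus repressed, log2 signal, y axis) with its standard error for each of the 9 genes (x axis), in dnBrg1, dnChd4, dnSnf2h and, from the fit of 17 arrays, control. Lcp1 in dnChd4 is highest at 2.91, Cd68 and Csf1 lie on both sides of 0, and the control bars of Lcp1, Naip5, Naip2 and Lyz2 are wide.

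In the control line, where the transactivator alone was induced, the 17-array fit gave 0 of the 9 genes past the threshold and 0 at an unadjusted limma p under 0.05, with 0% of all genes called. Lcp1 differed by 0.60 (SE 0.695), Naip5 by 0.81 (SE 0.618), Lyz2 by 0.36 (SE 0.397) and Naip2 by 0.34 (SE 0.490). Without the 2 libraries numbered 1, Lcp1 differed by 2.61 (SE 0.124), Naip5 by 2.60 (SE 0.260), Naip2 by 1.81 (SE 0.137), Lyz2 by 1.47 (SE 0.224) and Cd14 by -0.76 (SE 0.180). That fit compares 1 repressed with 2 induced arrays, whose lone repressed array is assumed to vary like the other groups. Then 4 of the 9 genes were higher and 1 lower, where 26.6% of all genes passed (15.4% higher and 11.2% lower). The size of the differences in Lcp1, Naip5, Naip2, Lyz2 and Cd14 follows from which arrays were left out. Their signs were the same in the 17-array fit, where the SEs were wide and Cd14 differed by -0.22 (SE 0.221). The count of 0 with 17 arrays rests on the labels as given. Cd68 (0.18 with 17 arrays, 0.05 with 15), Csf1 (-0.18 and -0.32), Lyz1 (-0.25 and -0.10) and Csf1r (-0.03 and 0.10) differed less. Whether a dominant-negative induction exceeds that of the control line in these genes was not tested.

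The lines also differed while repressed, a contrast the choice of genes did not use, although the same repressed arrays enter the inductions and these tests are therefore not independent of the choice. Repressed dnBrg1 had the higher levels of Lcp1, Lyz2, Naip5 and Cd68 and the lower levels of Cd14 and Csf1. Repressed dnChd4 minus repressed dnBrg1 gave -1.53 for Lcp1 (SE 0.104, 2.89-fold; limma adjusted p = 3e-07), -1.26 for Lyz2 (SE 0.190; adjusted p = 0.00038), -1.06 for Naip5 (SE 0.221; adjusted p = 0.00451) and -0.58 for Cd68 (SE 0.136; adjusted p = 0.00891). Repressed dnChd4 was higher in Cd14 by 0.66 (SE 0.128; adjusted p = 0.00259) and in Csf1 by 0.60 (SE 0.109; adjusted p = 0.00173). That made 2 of 9 higher and 4 lower, where 14.4% of all genes passed (6.35% higher and 8.07% lower). Naip2 (-0.27; adjusted p = 0.142), Lyz1 (-0.19; adjusted p = 0.470) and Csf1r (0.03; adjusted p = 0.910) did not pass.

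Repressed dnSnf2h differed from repressed dnBrg1 in 3 of the 9 genes, 2 higher and 1 lower, where 14.3% of all genes passed (6.72% higher and 7.61% lower). The difference was -0.91 for Lcp1 (SE 0.104; limma adjusted p = 4.11e-05), and dnSnf2h was higher in Cd14 by 1.04 (SE 0.128, 2.06-fold; adjusted p = 7.94e-05) and in Csf1 by 0.38 (SE 0.109; adjusted p = 0.0316). Cd68 (-0.42; adjusted p = 0.0529), Naip5 (-0.67; adjusted p = 0.0579) and Lyz2 (-0.53; adjusted p = 0.0785) lay near the threshold on the lower side. With the replicate number as a block 5 genes passed, Lyz2 (adjusted p = 0.0420) and Cd68 (adjusted p = 0.0206) among them. Between repressed dnSnf2h and repressed dnChd4 0 of the 9 genes passed (3 at an unadjusted limma p under 0.05), where 0.015% of all genes passed (0.01% higher and 0.00502% lower). The widest differences there were Lyz2 at 0.73 (adjusted p = 0.440) and Lcp1 at 0.61 (adjusted p = 0.127), and without dnSnf2h repressed replicate 1 both passed (0.96 with adjusted p = 0.0310, and 0.72 with adjusted p = 0.00882).

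With all 17 arrays, where each gene's spread includes the control groups, the calls of Lcp1 (adjusted p = 0.408 and 0.672), Lyz2 (0.157), Naip5 (0.592), Cd14 in dnChd4 (0.191) and Csf1 in dnSnf2h (0.0994) against dnBrg1 were lost. The SD of Lcp1 was 1.60 in the arrays labelled control repressed and 1.54 in those labelled control induced (n = 2 and 3), against at most 0.15 in the dominant-negative groups. Cd68 against dnChd4 was also lost without dnBrg1 repressed replicate 1 (adjusted p = 0.120) or dnChd4 repressed replicate 2 (0.163) and with the 4 arrays alone (0.0516), and Naip5 without the same arrays (0.0579 and 0.0942). Csf1 in dnSnf2h was lost without dnBrg1 repressed replicate 2 (0.190) or either repressed dnSnf2h array and with the 4 arrays alone (0.133).

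**Figure D3:**
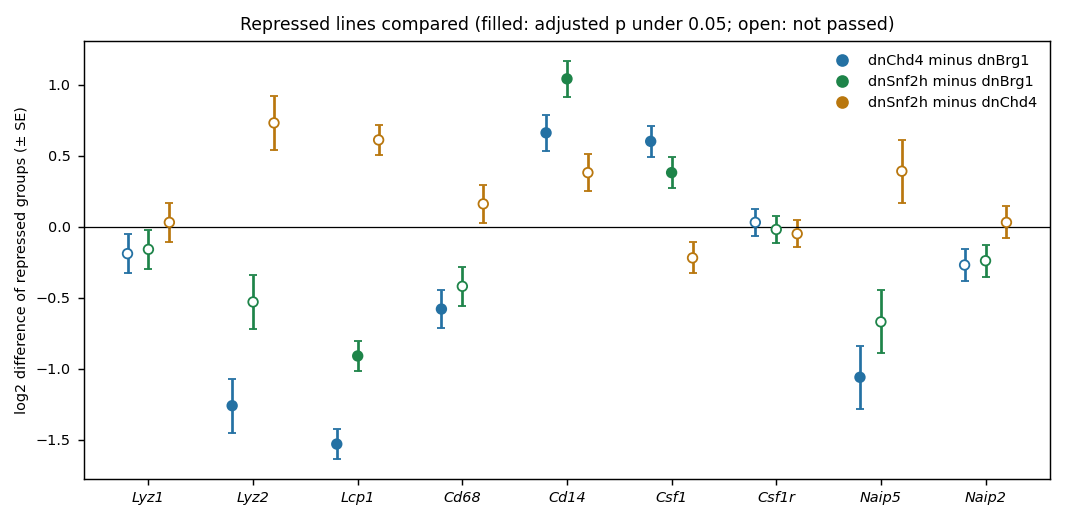
Differences between repressed lines (log2 signal, y axis) with standard errors for each of the 9 genes (x axis); filled symbols passed an adjusted p of 0.05 and open ones did not. Lcp1, Lyz2, Naip5 and Cd68 lie below 0 and Cd14 and Csf1 above 0 against dnBrg1, and no symbol of dnSnf2h minus dnChd4 is filled.

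In the same comparison of repressed lines, 7 of the 137 listed genes were higher and 13 lower in dnChd4 than in dnBrg1, and 5 were higher and 12 lower in dnSnf2h, where 14.4% and 14.3% of all genes passed. Lamp2 was higher by 0.50 and 0.51 (SE 0.0961; limma adjusted p = 0.00231 and 0.00226) and Il34 by 0.39 and 0.51 (SE 0.100; adjusted p = 0.0168 and 0.00326). In the fit over all 17 arrays 6 and 7 of the 137 passed. On the lower side, Casp1 differed by -1.32 in repressed dnChd4 and by -1.07 in repressed dnSnf2h (SE 0.140; limma adjusted p = 1.82e-05 and 0.000138), and Casp4 by -1.56 and -1.15 (SE 0.156; adjusted p = 1.01e-05 and 0.000185). Klf4, a transcription factor gene of monocytes and epithelia, differed by -1.50 and -1.71 (SE 0.146; adjusted p = 8.19e-06 and 2.55e-06). Cd36, the scavenger receptor and fatty acid transporter gene, was dim in all 3 repressed lines, at 4.48 and 4.60 in dnBrg1, and differed by -1.11 and -1.15 (SE 0.103; adjusted p = 5.08e-06 and 4.15e-06). Other lineage markers also differed there: Krt14 and the endothelial gene Cdh5 were higher in repressed dnChd4 and dnSnf2h. Of the 4 endothelial markers only Cdh5 passed, with list medians of 0.03 and -0.08, and it ranged from 3.86 to 8.33 over all 17 arrays. The mean over these 4 was between 4.37 and 4.48 on the repressed dnBrg1 arrays. It was between 5.41 and 5.44 in repressed dnChd4 and between 5.23 and 5.30 in repressed dnSnf2h. Among mesenchymal markers Col1a2 and Pdgfrb were higher in both, and Pdgfra was lower in dnChd4. The part of these lineage markers in the differences between lines was not tested. Both contrasts share the repressed dnBrg1 arrays.

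Of 33 surface and effector genes that mark macrophages and leukocytes, 13 had a mean above the dim level, and the median differences were -0.04, -0.04 and -0.02 in dnBrg1, dnChd4 and dnSnf2h. Cd74, whose product chaperones class II antigen-presenting molecules, rose by 1.50 in dnChd4 (SE 0.086; limma adjusted p = 6.17e-08), from 4.45 and 4.48 to 5.94 and 5.99, and by 0.30 in dnSnf2h (adjusted p = 0.0232). Cd36 rose by 1.41 in dnBrg1 (SE 0.103; adjusted p = 1.25e-06), to 5.91 and 5.98. Itgb2, the leukocyte integrin beta chain gene, fell by 0.58 in dnBrg1 (SE 0.0933; adjusted p = 0.000743) and by 0.30 in dnChd4 (adjusted p = 0.0333). Ncf4, a subunit gene of the phagocyte oxidase, rose by 0.54 in dnSnf2h (SE 0.125; adjusted p = 0.00704). In all, 1 rose and 2 fell in dnBrg1, 1 rose and 1 fell in dnChd4, and 2 rose and 1 fell in dnSnf2h, where 14.2%, 18% and 17.5% of all genes passed. Over all 17 arrays Cd74 in dnChd4 (adjusted p = 2.52e-06) and Cd36 (adjusted p = 4.06e-05) still passed, and Itgb2 (adjusted p = 0.123 and 0.442), Ncf4 (adjusted p = 0.277) and Cd74 in dnSnf2h (adjusted p = 0.293) did not. Itgb2 in dnChd4 was also lost without any 1 of its 4 arrays, with quantile normalization and with median centring. Cd74 in dnSnf2h was lost with the 4 arrays of the line alone, with median centring and without repressed replicate 2 or either induced array, and Ncf4 without dnSnf2h induced replicate 2.

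Of 17 myeloid transcription factor genes, 0 rose and 2 fell in dnBrg1, 1 rose and 1 fell in dnChd4, and 1 rose and 2 fell in dnSnf2h, where 14.2%, 18% and 17.5% of all genes passed. Zeb2 fell by 0.74 in dnBrg1 (SE 0.110; limma adjusted p = 0.000404) and Klf4 by 0.61 (adjusted p = 0.0106). Cebpb, a C/EBP factor gene of macrophages and mammary epithelium, fell by 0.47 in dnChd4 and 0.51 in dnSnf2h (adjusted p = 0.00527 and 0.00346). Irf5, an interferon regulatory factor gene of macrophages, rose by 0.40 and 0.57 in the same lines (SE 0.0984; adjusted p = 0.0105 and 0.000869). Zeb2 passed with all 17 arrays (adjusted p = 0.0174), while Klf4, Cebpb and Irf5 did not (adjusted p between 0.170 and 0.493). Klf4 was also lost without dnBrg1 repressed replicate 1 or induced replicate 2, Irf5 in dnChd4 without repressed replicate 2 or induced replicate 1, and Cebpb in dnSnf2h with the 4 arrays of the line alone.

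**Figure D4:**
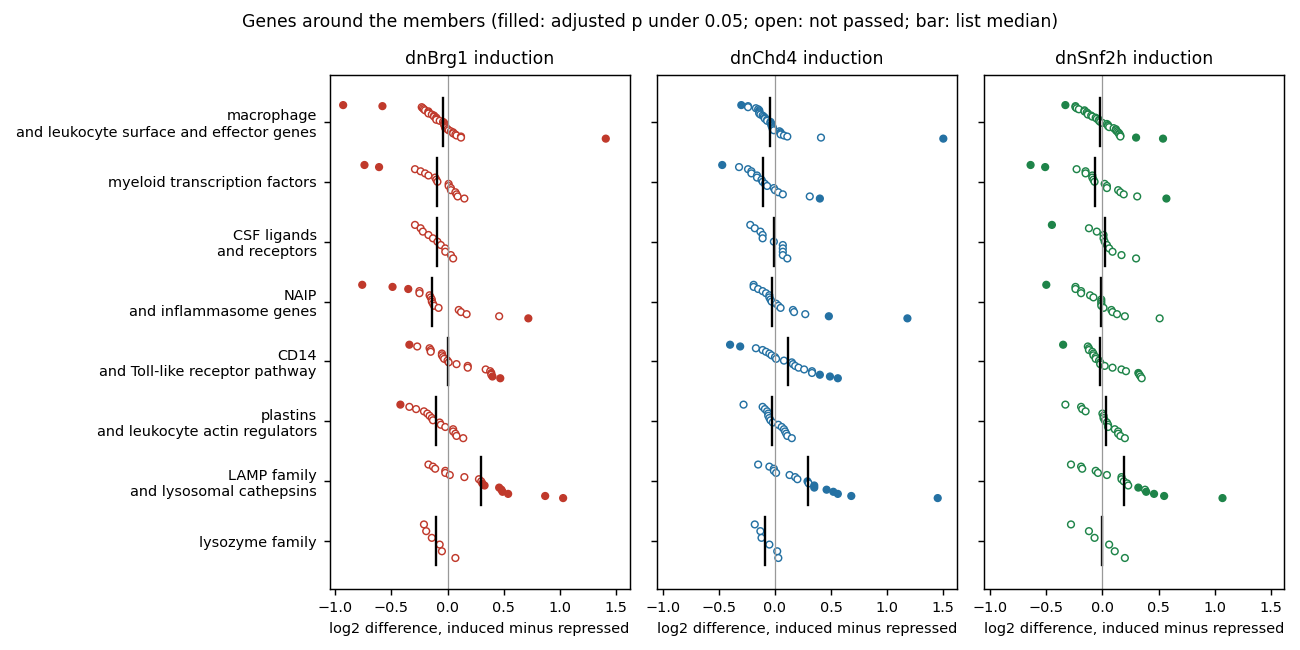
Difference on induction (log2 signal, x axis) of each measured gene in 8 lists (y axis) in dnBrg1, dnChd4 and dnSnf2h, without the 9 genes themselves; filled points passed an adjusted p of 0.05, open points did not, and bars are list medians. The LAMP family and cathepsin list has its medians at 0.30, 0.29 and 0.19, and the medians of the other lists lie between -0.14 and 0.11.

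Markers that define the macrophage lineage were examined to see whether they moved with the genes above. Of 12 such genes, Csf1r among them, 4 had a mean above the dim level (Cx3cr1, Tyrobp, C1qb and C1qc), while Adgre1, Itgam, Fcgr1, Mertk, Fcer1g, C1qa and the lineage factor gene Spi1 were dim. In limma 0 of the 12 passed in each of the 3 inductions, with 0, 0 and 2 at an unadjusted p under 0.05. The mean over the list was between 4.62 and 4.71 on the 6 repressed and between 4.57 and 4.67 on the 6 induced dominant-negative arrays. As a description, the group means of the other 11, most of them dim, spanned between 0.14 and 0.30 over the dominant-negative lines, and those of the 9 genes, chosen for such differences, between 0.16 (Csf1r) and 2.91 (Lcp1). The pan-leukocyte genes Ptprc, Cd53 and Laptm5 were dim too, and of 4 pan-leukocyte, 5 T cell, 3 B cell, 7 neutrophil and 4 endothelial markers 0 passed in any of the 3 inductions in limma (at an unadjusted p under 0.05, 1 neutrophil gene in dnBrg1 and 1 neutrophil and 1 T cell gene in dnChd4). In bulk RNA fewer cells of a type and less RNA per cell cannot be told apart.

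**Figure D5:**
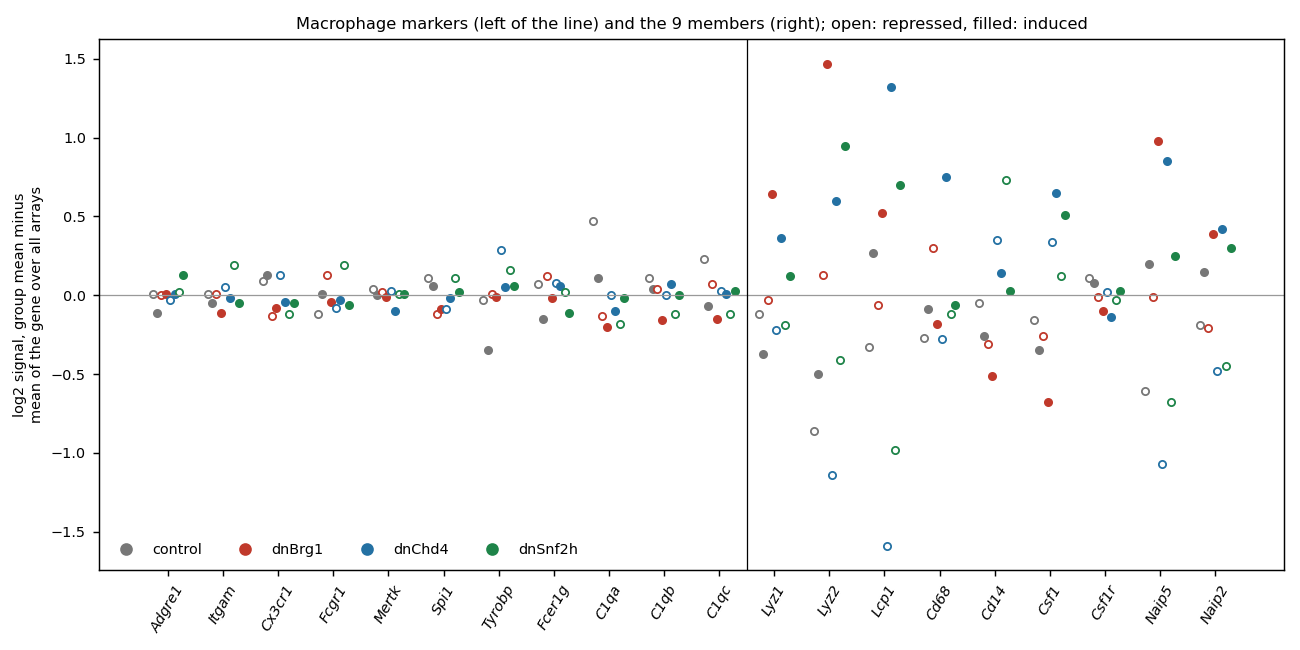
Group mean of each gene minus that gene's mean over all 17 arrays (log2 signal, y axis) for 11 macrophage markers, left of the line, and the 9 genes, right of it; open symbols are repressed and filled symbols induced groups. The markers' dominant-negative groups span at most 0.30, and those of the 9 genes between 0.16 (Csf1r) and 2.91 (Lcp1).

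The label of the cells was checked against epithelial and mesenchymal markers. Of 10 epithelial genes 8 had a mean above the dim level, among them Krt8, Krt18 and Cdh1, while Epcam and Krt19 were dim. The mean over these 10 was between 5.38 and 5.73 on the arrays, whose medians over all genes were between 5.86 and 6.0. Of 8 mesenchymal genes 7 were above the dim level, with a mean over the 8 between 7.72 and 8.41, and Vim read between 12.29 and 13.16. In dnBrg1 5 of the mesenchymal genes fell and 0 rose, in dnChd4 0 fell and 1 rose, and in dnSnf2h 3 fell and 0 rose, while among epithelial genes Krt14 fell in all 3 and Krt7 rose in dnSnf2h. Their part in the values above was not tested.

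Over the 12 dominant-negative arrays Lcp1, Lyz2, Naip5 and Naip2 correlated with each other at r between 0.84 and 0.93, and Lyz1 correlated with them at r between 0.73 and 0.84. Cd68 followed Lcp1 (r = 0.63) more than Lyz2 (r = 0.18), and Csf1 correlated with Cd14 (r = 0.59) and hardly with Lcp1 (r = 0.08). Csf1 and Cd14 were both lowest in the dnBrg1 groups. On induction they went opposite ways in dnChd4 and dnSnf2h, with Csf1 at 0.31 and 0.39 and Cd14 at -0.21 and -0.70. The r values describe 12 points that share 6 groups and the same arrays. The 2 genes most like each member over those arrays were Dctn3 (r = 0.986) and Tmem9 (0.984) for Lyz2, Acap3 (0.983) and Gdf11 (0.976) for Lcp1, Prkd2 (0.992) and Npr2 (0.984) for Naip5, and Tbc1d9b (0.988) and Zfand3 (0.985) for Naip2. They were Aph1b (0.947) and Adipor1 (0.930) for Lyz1, Gstm1 (0.908) and Ikbke (0.869) for Cd68, Pip4p1 (0.975) and Ifi30 (0.964) for Cd14, Masp1 (0.970) and Sting1 (0.968) for Csf1, and Plbd1 (0.945) and Slco5a1 (0.925) for Csf1r. Gdf11 differed by 0.84, 2.14 and 1.42 in dnBrg1, dnChd4 and dnSnf2h, the same order of lines as Lcp1. Sting1, the adaptor gene of cytosolic DNA sensing, differed by -1.02, 1.10 and 0.48, the same signs as Csf1.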

How the data were processed

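RNA of 17 samples was read on Affymetrix whole-transcript mouse arrays. Expression Console made the array values, per the submitters' processing notes; the version, the normalization and the build were not given in the sources used here. The deposited values are on a log2 scale, judged from their range, and were used without further scaling. Among 35557 probe sets, the platform annotation gave 21789 a single symbol. For the 999 genes with several such probe sets the one with the highest mean was kept, which left 19938 genes, and each of the 9 genes had 1. An array gives no read depth, so the number of arrays limits precision.

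Group means were fitted with lmFit and eBayes of limma 3.58.1 (R 4.3.3) over the 12 dominant-negative arrays, and over all 17 for the control line. Every adjusted p is from limma, by Benjamini-Hochberg over all genes, with a threshold of 0.05. The fit was tested on simulated data. The members, lists, marker sets and the setting aside of control arrays were chosen with earlier results of these data known. Named list genes were up to 2 per list and induction with the smallest adjusted p and no overlap of arrays; Lamp1, Pycard, Il18 and Ctss were chosen after their values were seen. Genes most alike were the 2 highest correlations per member, predicted and clone names passed over. Alternatives were all 17 arrays, 15 arrays, the groups of the contrast alone, the replicate block, trended and robust eBayes, the dimmest 30% left out, quantile normalization, median centring and each array left out. The lists held 137 measured genes. Protein sequences were not analysed here.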

Additional observations from a re-analysis of the deposited data

Results flagged for a closer look

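Groups held 2 or 3 arrays, too few to test single arrays as outliers. Cd68, Csf1 and Casp1 stood out because all induced arrays lay on one side of the repressed arrays in one dominant-negative line and on the other side in another. How many of all genes met this rule was not counted, so meeting it carries no weight of its own. For Cd68 the differences were -0.48 in dnBrg1 and 1.03 in dnChd4. For Csf1 they were -0.42 in dnBrg1, 0.31 in dnChd4 and 0.39 in dnSnf2h. For Casp1 they were -0.76 in dnBrg1, -0.50 in dnSnf2h and 0.27 in dnChd4, the last of which did not pass (limma adjusted p = 0.228). The difference between lines was not tested, since Cd68 and Csf1 were chosen on these contrasts.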

How the results depend on the processing

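Main counts are in brackets. With all 17 arrays, where each gene's spread includes the control groups, the induction calls over all genes were 68 (2839) in dnBrg1, 19 (3590) in dnChd4 and 1 (3497) in dnSnf2h, those of the 9 genes 0 (7), 1 (6) and 0 (6), and those of the listed genes 2 (22), 1 (19) and 0 (15). Between repressed lines the same setting gave 804 (2875), 775 (2857) and 0 (3) over all genes for dnChd4 against dnBrg1, dnSnf2h against dnBrg1 and dnSnf2h against dnChd4, with 2 (6) and 1 (3) of the 9 genes and 6 (20) and 7 (17) listed genes in the first pair. With only the groups of the contrast, dnSnf2h induction gave 1446 genes and 3 listed genes, dnSnf2h against dnBrg1 1014 and 9, and dnSnf2h against dnChd4 0. The last gave 1 with the replicate block, quantile normalization or median centring. Of the 9 genes, 5 (3) passed for dnSnf2h against dnBrg1 with 15 arrays, the dimmest genes left out or the replicate block. Control induction with 15 arrays gave 5310 (0) genes, 5 (0) of the 9 and 27 (0) listed. Beyond the 17-array spread and the fewer arrays, the cause was not tested.

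The replicate block changed no other count by over 1.5 times. Deviations of same-numbered arrays correlated at r = 0.016, 0.135 and 0.313 in the dnBrg1, dnChd4 and dnSnf2h inductions. The labels name no shared batch or day and each contrast has 2 pairs, so the number was not taken as a pairing, and whether it is one was not settled. The crossed pairing for dnSnf2h against dnBrg1, chosen after seeing the data, gave 2066 genes. Every member had 1 probe set, so other probe sets gave no value.

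Leaving out 1 array gave between 1353 and 2175 genes in dnBrg1, 1926 and 2624 in dnChd4, 2342 and 4204 in dnSnf2h, and 0 and 4 in the control (4 without control induced replicate 1). Of the 9 genes between 4 and 6, 5 and 7, and 4 and 6 passed in the dominant-negative inductions (4 in dnBrg1 without induced replicate 2). The 9 genes were chosen on these inductions, so such counts carry no weight of their own, here or under the other settings. Of the listed genes between 10 and 17, 8 and 14, and 7 and 27 passed, with 10 without dnBrg1 induced replicate 1, 8 without dnChd4 induced replicate 1, and 27 and 7 without dnSnf2h repressed and induced replicate 1. Between repressed lines the ranges were 1345 to 2053, 1784 to 3377 and 0 to 500 genes, 4 to 6, 2 to 4 and 0 to 2 of the 9 genes, and 9 to 14 and 11 to 27 listed genes. The lowest were 1345 and 9 without dnChd4 repressed replicate 2 and 1784 without dnBrg1 repressed replicate 1, and the highest 3377, 27, 500 and 2 without dnSnf2h repressed replicate 1. No difference of the 9 genes that had passed changed sign under any alternative. Several alternatives, such as all 17 arrays, leave the group means as they are, so the sign could not change there. The unchanged signs are therefore no evidence of stability.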
